A study of Mus musculus with 6 samples.

Results

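The EGF (epidermal growth factor) family genes described here are ligands and ErbB receptors, 10 listed symbols in all: the ligand genes Ereg, Areg, Hbegf, Epgn, Tgfa, Btc and Nrg1 and the receptor genes Egfr, Erbb2 and Erbb3. A member was measured where a probe set of the array carried its symbol and no other, and of several such probe sets the one with the highest mean over the 6 arrays was taken. This gave 9 members, 6 ligands and 3 receptors, of 22180 genes tested. Areg, which encodes amphiregulin, had no probe set of its own name and was not analysed here. The list was drawn up with results of this comparison known, and the mean level chose between probe sets, so the values and calls of the members are given as a description of these arrays. The probe set of Ereg was chosen by that mean level, and each other member had 1.

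The cells were cultured mouse fibroblast-like synoviocytes, the connective tissue cells that line joints, taken from the knee of C57BL6 mice and used between passage 4 and passage 8. On 3 arrays (Mock) they had been infected with an adenovirus that carried no insert, and on 3 (Ad-Epas1) with one carrying Epas1, the gene of the oxygen-regulated transcription factor HIF-2alpha. Both viruses were given at the same multiplicity of infection, 800, for 2 h, and RNA was taken after a further incubation of 24 h, so the control cells were infected too. The age of the mice, whether replicates came from separate animals and the promoter that drove Epas1 are not given in the sources used here. P-values therefore measure the spread between these samples, which may in part be technical.

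EGF family ligands are made as membrane-bound precursors, and proteases at the cell surface release the soluble growth factor. The ligands of the EGF receptor (epiregulin, amphiregulin, HB-EGF, epigen, TGF-alpha and betacellulin) bind EGFR, and some of them also ErbB4, while neuregulins bind ErbB3 and ErbB4. Bound receptors pair with each other or with ErbB2, which has no known ligand, and signal through the Ras-MAP kinase and PI3 kinase routes. In fibroblasts EGF receptor signals are known for driving proliferation and migration.

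Values are log2 RMA levels, and differences are Ad-Epas1 minus Mock on that scale, tested by limma over all genes with Benjamini-Hochberg adjustment and a threshold of 0.05. In these tests 1458 genes rose and 2162 fell (1080 and 2742 with each array centred on its median), and 16.3% of all genes were called in either direction. The called genes numbered 2186, 1512, 1187 and 1181 when Ad-Epas1 1, Ad-Epas1 2, Mock 2 or Mock 3 (group and replicate number) was left out. Epas1 itself stood between 8.51 and 8.71 in Mock and between 13.11 and 13.15 in Ad-Epas1. As a scale for genes not expected in these cells, 95% of 1394 olfactory and vomeronasal receptor genes had a mean level below 6.62. Of 12 fibroblast markers, 11 stood above that level in Mock, and so did 15 of 16 macrophage markers. Among the fibroblast markers Prg4 and Pdpn rose, Pdgfrb and Cdh11 fell and 8 did not pass, and the list's median from the Mock mean was -0.27, -0.13 and -0.10 on Ad-Epas1 replicates 1 to 3; its part in the ligand values was not tested. The median macrophage marker was -3.85 from its Mock mean on Ad-Epas1 replicate 3, against -0.02 and -0.15 on replicates 1 and 2 of that group, and the summed linear level of these markers was 3262 on replicate 3 against 40791 to 51889 on the other arrays. Lyz2, a lysozyme gene of macrophages, stood at 7.15 there and between 12.75 and 12.94 elsewhere. Over all arrays 3 macrophage markers fell (Mrc1, C1qa and C1qc) and none rose. C1qc was called in none of the fits that left out 1 array, other than that without Ad-Epas1 3, Prg4 was not called without Mock 2, Mock 3, Ad-Epas1 1 or Ad-Epas1 2, and Cdh11 was not called without Mock 2 or Mock 3 (highest adjusted p 0.14, 0.11 and 0.056).

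Among the ligands, Ereg, Hbegf and Epgn were higher in Ad-Epas1 cells, by 5.81-fold, 4.46-fold and 2.02-fold, and Nrg1 was 2.60-fold lower. Tgfa and Btc did not pass the test, and neither did any of the 3 receptors. In all, 3 of the 9 measured members rose, 1 fell and 5 did not pass, a called share of 44.4% beside 16.3% of all genes. Higher calls alone made up 6.57% of all genes and lower calls 9.75%. The groups did not overlap for 5 members, which was the case for 39.7% of all genes (21.3% higher and 18.4% lower in Ad-Epas1). Nothing is read from these shares, since the comparison itself was known when the members were listed.

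Ereg encodes epiregulin, a ligand of EGFR and ErbB4. Its level was 8.93, 9.19 and 9.17 on Mock replicates 1 to 3 and 11.72, 11.89 and 11.29 on Ad-Epas1 replicates 1 to 3. Every Ad-Epas1 array lay above every Mock array, and Ad-Epas1 replicate 3 was the lowest of its group. The means were 9.09 ± 0.15 and 11.63 ± 0.31 (SD, n = 3 each), a log2 difference of 2.54 (SE 0.16, limma, adjusted p = 6.7e-04). It was rank 36 among the 22180 genes ordered from the largest upward difference. Ereg had a second, dimmer probe set, with levels between 7.28 and 7.58 in Mock and between 8.03 and 8.39 in Ad-Epas1. That probe set gave a smaller difference in the same direction, 0.71 (SE 0.13, limma over all probe sets, adjusted p = 0.015), and the mean over both probe sets gave 1.62, so the size of the change differed with the probe set.

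Hbegf encodes heparin-binding EGF-like growth factor, which also binds EGFR and ErbB4. It stood at 9.75, 9.80 and 9.75 in Mock and at 11.84, 12.15 and 11.79 in Ad-Epas1. The Mock arrays spanned 0.06 (SD 0.03), and all 3 Ad-Epas1 arrays lay far above them. The log2 difference was 2.16 (SE 0.10, adjusted p = 3.1e-04 by limma), at rank 49 of the upward differences.

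Epgn encodes epigen, a ligand of EGFR. Its levels were 5.92, 6.20 and 6.09 in Mock and 7.13, 7.17 and 6.95 in Ad-Epas1. All Mock values lay below the 6.62 of the receptor reference genes and all Ad-Epas1 values above it, so the size of the fold change is not exact. The difference was 1.01 (SE 0.10, limma, adjusted p = 0.0023).

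Nrg1, the gene of neuregulin-1, a ligand of ErbB3 and ErbB4, moved the other way. It stood at 11.59, 11.69 and 11.72 in Mock and at 10.16, 10.22 and 10.48 in Ad-Epas1. The groups were separate, and Ad-Epas1 replicate 3 was the closest of its group to Mock. The difference was -1.38 (SE 0.10, limma, adjusted p = 9.3e-04). Nrg1 has many transcript forms, and its 1 probe set does not tell them apart.

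Tgfa, which encodes TGF-alpha, stood at 6.69, 6.67 and 6.23 in Mock and at 6.82, 6.99 and 6.84 in Ad-Epas1. The groups did not overlap, but Mock replicate 3 was 0.44 below the next Mock array. The difference of 0.35 (95% interval 0.03 to 0.68) did not pass (limma, adjusted p = 0.13), and with array weights it was 0.42 (adjusted p = 0.047). Btc, the betacellulin gene, stood between 6.41 and 6.60 in Mock and between 6.55 and 6.75 in Ad-Epas1. Its groups overlapped, and the difference was 0.15 (95% interval -0.05 to 0.36, adjusted p = 0.27). Both genes lay close to the receptor reference level in both groups, where probe summaries compress differences.

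**Figure D1:**
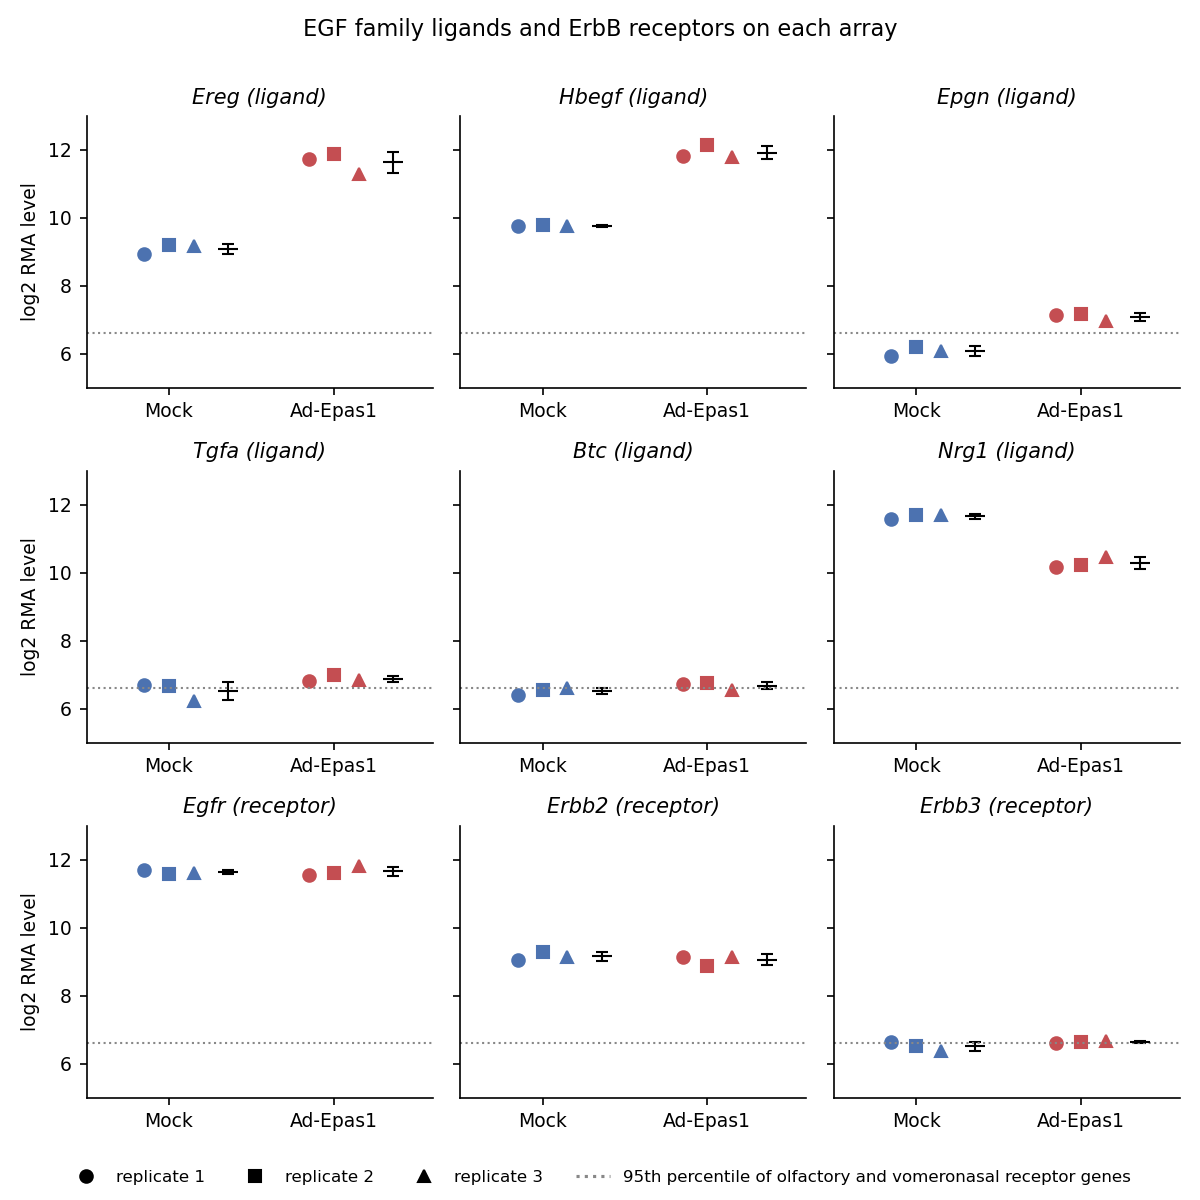
Log2 RMA level (vertical axis) of the 9 measured members on each array, with Mock in blue and Ad-Epas1 in red, replicates 1 to 3 as circle, square and triangle, and the mean ± SD (n = 3) in black beside them. Ereg, Hbegf and Epgn are higher on all Ad-Epas1 arrays and Nrg1 is lower, while Btc, Egfr, Erbb2 and Erbb3 overlap; the dotted line at 6.62 is the level below which 95% of the olfactory and vomeronasal receptor genes lie.

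The groups overlapped for each of the 3 receptors, and none was called. Of all genes, 39.7% had groups that did not overlap and 16.3% were called. Egfr, the receptor of the risen ligands, stood at 11.72, 11.60 and 11.62 in Mock and at 11.55, 11.63 and 11.82 in Ad-Epas1. The groups overlapped, and the difference was 0.02 with a 95% interval from -0.19 to 0.24 (limma, adjusted p = 0.89), so a change of the size seen for Epgn lay outside that interval. Erbb2, the receptor without a ligand of its own, stood at 9.04, 9.30 and 9.15 in Mock and at 9.16, 8.87 and 9.15 in Ad-Epas1. Its difference was -0.11 (95% interval -0.37 to 0.15, adjusted p = 0.53). Erbb3, the neuregulin receptor with a weak kinase, stood between 6.39 and 6.64 in Mock and between 6.60 and 6.66 in Ad-Epas1, near the receptor reference level. Its difference was 0.13 (95% interval -0.07 to 0.32, adjusted p = 0.33). None of the 3 receptor genes had an unadjusted p under 0.05 in limma, and nothing is read from a count of so few genes.

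The family genes outside the list were Egf, the ligand for which the family is named, the neuregulin genes Nrg2, Nrg3 and Nrg4, and the receptor gene Erbb4. None of these 5 passed (limma, with 1 of them, Erbb4, at an unadjusted p under 0.05). Of all genes 16.3% were called, so nothing is read from this count. The differences were 0.05 for Egf, -0.01 for Nrg2, 0.04 for Nrg3, 0.10 for Nrg4 and 0.22 for Erbb4 (adjusted p between 0.089 and 0.93). The means of all 5 in Mock lay between 5.82 and 6.63, at or below the level of the receptor reference genes apart from Nrg2 at 6.63. A p above the threshold at such levels does not show that these genes did not change. With array weights Erbb4 was called (0.18, adjusted p = 0.041).

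**Figure D2:**
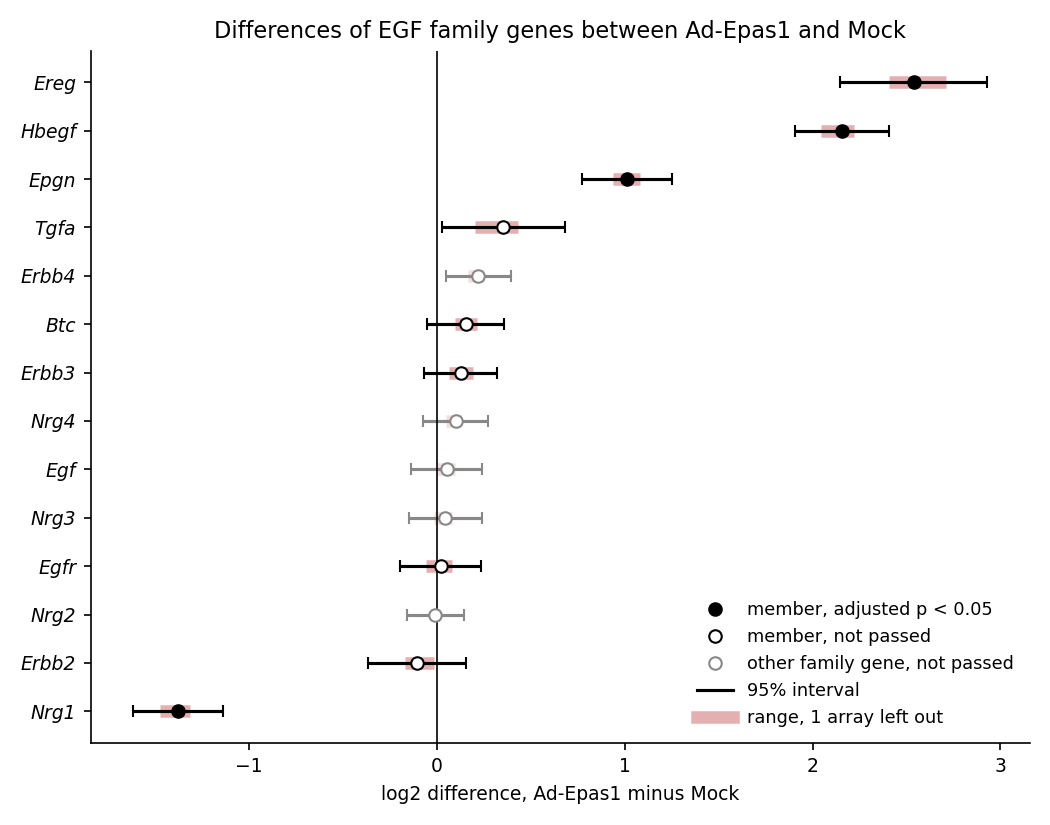
Log2 difference of Ad-Epas1 minus Mock (horizontal axis) for the 9 members (black) and the 5 other family genes (grey), with the 95% interval of the limma fit as bars and the range with each of the 6 arrays left out as bands. Ereg, Hbegf and Epgn lie to the right of 0 and Nrg1 to the left, with the bands on the same side, and filled points mark an adjusted p under 0.05.

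The 4 calls did not rest on a single array. With each of the 6 arrays left out in turn, the difference of Ereg stayed between 2.41 and 2.71, that of Hbegf between 2.05 and 2.22, that of Epgn between 0.94 and 1.08 and that of Nrg1 between -1.47 and -1.31. The highest adjusted p among these fits was 0.0076 for Ereg, 0.0052 for Hbegf, 0.019 for Epgn and 0.011 for Nrg1, and 3 members rose and 1 fell in each of them. On Ad-Epas1 replicate 3, where the macrophage markers were low, Ereg (11.29), Hbegf (11.79) and Epgn (6.95) had their lowest levels of that group. For Hbegf this was only 0.04 below Ad-Epas1 replicate 1. Nrg1 had its highest level of the group on replicate 3 (10.48). Each of these levels lay outside the Mock range of its gene, and the part of the macrophage markers in the ligand values was not tested. Of 9 measured epithelial markers, 2 rose and none fell, beside 6.57% of all genes that rose and 9.75% that fell. The 2 risen markers were the keratin genes Krt18 (0.67, limma, adjusted p = 0.024) and Krt19 (1.68, adjusted p = 0.0070). The call of Krt18 ended in each fit that left out 1 array, other than Ad-Epas1 replicate 3. Epithelial markers had a summed linear level of 995 to 1002 in Mock and 1168 to 1451 in Ad-Epas1, and their part in the ligand values was not tested. Fewer cells of a type and less RNA per cell cannot be told apart in such samples.

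The genes of 4 ligands adjoin on mouse chromosome 5. In the RefSeq gene order of GRCm38.p6, the 4 protein-coding genes from Epgn to Btc were Epgn, Ereg, Areg and Btc, all of them members. A cluster of CXC chemokine genes, which encode attractants of neutrophils, lies before Epgn. Around the ligands, 16 tested protein-coding genes were set out in order: 10 before Epgn, the 3 measured ligands and 3 after Btc. This window was chosen after the values were seen. In it 6 genes rose, 1 fell and 9 did not pass, beside 6.57% of all genes that rose and 9.75% that fell, and nothing is read from this count. The risen genes were Epgn, Ereg, Cxcl1 (1.82, SE 0.34, adjusted p = 0.016), Cxcl2 (3.21, SE 0.77, adjusted p = 0.035), Cxcl3 (4.47, SE 1.03, adjusted p = 0.031) and Odaph (0.50, SE 0.11, adjusted p = 0.026). Rassf6, which encodes a Ras association domain protein, fell by 1.81 (SE 0.22, adjusted p = 0.0041). The mean of Odaph lay below the 6.62 of the receptor reference genes in both groups (6.02 and 6.51), that of Cxcl3 in Mock (5.88) and that of Rassf6 in Ad-Epas1 (5.85), so the sizes of these differences are not exact.

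Mthfd2l, a mitochondrial folate enzyme gene that lies between the chemokine genes and Epgn, did not pass (-0.33, limma, adjusted p = 0.060). Cxcl15, between Cxcl3 and Cxcl1 in the gene order, did not pass either (0.06, adjusted p = 0.65). The values of Cxcl1, Cxcl2 and Cxcl3 were less even than those of the ligands. Cxcl3 stood at 7.67, 4.88 and 5.10 in Mock and at 11.79, 10.79 and 8.47 in Ad-Epas1, while the Ereg arrays of each group spanned at most 0.60. Leaving out Mock 2, Mock 3, Ad-Epas1 1 or Ad-Epas1 2 ended the calls of Cxcl1, Cxcl2 and Cxcl3 (highest adjusted p 0.071, 0.13 and 0.12), and the value of Cxcl3 ranged from 3.75 to 5.41 over these fits, with the lowest when Ad-Epas1 1 was left out, 5.36 when Mock 1 was and the highest when Ad-Epas1 3 was. Cxcl2 was at 4.07 when Ad-Epas1 3 was left out. Odaph was not called when any Mock array or Ad-Epas1 2 was left out (highest adjusted p 0.105). Pf4 and Parm1, which did not pass over all arrays, were called when Ad-Epas1 3 was left out. The ligands Epgn and Ereg kept their calls in all 6 fits.

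**Figure D3:**
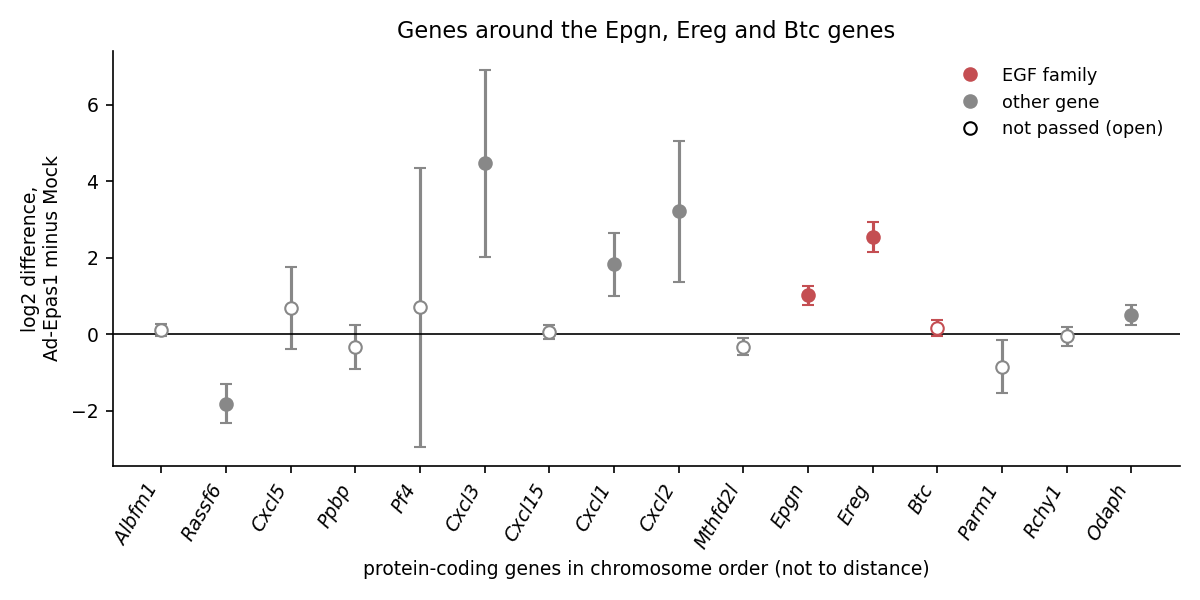
Log2 difference of Ad-Epas1 minus Mock (vertical axis) with 95% intervals for 16 protein-coding genes in chromosome order, evenly spaced and not to distance; EGF family genes are red, other genes grey, and open points did not pass. Epgn and Ereg rise beside Btc, which does not pass, and Cxcl1, Cxcl2 and Cxcl3 to their left have wider intervals than either; Areg, between Ereg and Btc, is not plotted because it was not analysed.

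RefSeq promoter windows of GRCm38.p6 were matched for 6 of the 10 listed members (Areg, Epgn, Tgfa, Btc, Egfr and Erbb2). The bases upstream of the start, 250 each, are shown for Epgn, which rose, and for Btc, its neighbour at the other end of the ligand group, which did not pass. They were searched on both strands for the hypoxia response element core as ACGTG or GCGTG, the AP-1 motif TGANTCA, the cAMP response element TGACGTCA and the TATA motif TATAAA, and capitals mark the matches. Epgn lies on the plus strand at chr5:91027267-91027516 and Btc on the minus strand at chr5:91402995-91403244.
Epgn: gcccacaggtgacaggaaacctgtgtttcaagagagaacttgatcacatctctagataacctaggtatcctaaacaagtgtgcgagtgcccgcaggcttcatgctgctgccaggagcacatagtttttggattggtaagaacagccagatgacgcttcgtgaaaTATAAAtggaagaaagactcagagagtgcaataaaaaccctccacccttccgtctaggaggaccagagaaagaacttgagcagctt
Btc: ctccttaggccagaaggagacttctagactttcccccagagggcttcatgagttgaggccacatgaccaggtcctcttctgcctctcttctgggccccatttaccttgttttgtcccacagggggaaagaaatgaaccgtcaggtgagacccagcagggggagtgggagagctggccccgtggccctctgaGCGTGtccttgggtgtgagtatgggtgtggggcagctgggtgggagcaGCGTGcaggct

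The Epgn window held 1 TATAAA, 86 to 81 bases before the start, and none of the other motifs. The Btc window held GCGTG at 2 places, 59 to 55 and 11 to 7 bases before the start. Among all 32851 windows of this length, 28.2% held GCGTG, 16.6% ACGTG, 6.75% TGANTCA, 1.55% TGACGTCA and 12.4% TATAAA. None of the 6 member windows held ACGTG or TGANTCA. That of Areg held TGACGTCA 61 to 54 bases and TATAAA 31 to 26 bases before the start. The Tgfa window held GCGTG 222 to 218 bases before the start. These letters say only what the windows contain, not what binds there.

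The genes whose profile over the 6 arrays was closest to that of Ereg, the member with the largest difference by its brighter probe set (the mean over its probe sets gave 1.62, below the 2.16 of Hbegf), were found by the root mean square distance between the levels after each gene's own mean was subtracted. Genes with no settled name were left out. Among the rest the nearest was Ptgs2, which encodes the prostaglandin enzyme cyclooxygenase-2, at a distance of 0.12. It was followed by Lif (0.14), a cytokine gene of the interleukin-6 family, Nqo1 (0.17), a quinone reductase gene, the probe set named Mir1933 (0.22) and Hbegf (0.24). Ptgs2 stood at 9.88, 10.03 and 10.08 in Mock and at 12.80, 12.72 and 12.45 in Ad-Epas1. Since the 2 groups dominate such a distance, it describes a shared size of difference over 6 arrays and no more.

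Proteases that release the ligands and their regulators changed in part. Of 13 measured genes of ligand shedding, 1 rose, 3 fell and 9 did not pass (30.8% called, beside 16.3% of all genes), with a median difference of -0.12 against 0.05 over all genes. Timp3, which encodes an inhibitor of ADAM17, fell by 1.95 (SE 0.27, limma, adjusted p = 0.00615), from 12.83 ± 0.29 to 10.88 ± 0.51. Adam19, a metalloprotease gene, rose by 0.96 (SE 0.14, adjusted p = 0.0067), and by 0.56 over the mean of its 2 probe sets. Bace1, the gene of a protease that cleaves neuregulin-1, fell by 0.57 (adjusted p = 0.032), and Adam15 fell by 0.30 (adjusted p = 0.022). Bace1 and Adam15 were less firm. Neither was called when Mock 2, Mock 3, Ad-Epas1 1 or Ad-Epas1 2 was left out, nor was Adam15 when Mock 1 was, and over the mean of their probe sets they were at -0.35 (adjusted p = 0.093) and -0.04 (adjusted p = 0.68).

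Adam17, the main releasing protease of several EGFR ligands, stood between 10.16 and 10.32 in Mock and between 10.12 and 10.43 in Ad-Epas1, and its groups overlapped (difference 0.06, 95% interval -0.18 to 0.30, adjusted p = 0.70). Adam10, which releases betacellulin and EGF, was at 0.18 (adjusted p = 0.13). Rhbdf2, whose product iRhom2 carries ADAM17 to the surface, was at 0.595 (adjusted p = 0.11), and its Mock replicate 1 lay above its Ad-Epas1 replicate 3. It passed at 0.77 (adjusted p = 0.030) when Ad-Epas1 3 was left out. Adam8 stood at 8.40 on Ad-Epas1 replicate 3, where the macrophage markers were low, and between 11.69 and 12.25 on the others. These 4 genes are named outside the rule, with their values known. The list had 2 calls when Mock 2, Mock 3, Ad-Epas1 1 or Ad-Epas1 2 was left out, and 7 when Ad-Epas1 3 was.

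Among 13 measured surface partners of the ligands and receptors, 4 rose, 1 fell and 8 did not pass, with a median of 0.02. The called share was 38.5%, beside 16.3% of all genes (6.57% higher and 9.75% lower). Gpc1, a heparan sulfate proteoglycan gene, rose by 0.74 (SE 0.07, limma, adjusted p = 0.0019), and Sdc4, the gene of the proteoglycan syndecan-4, by 0.59 (SE 0.07, adjusted p = 0.0035). Heparan sulfate chains bind HB-EGF. Cd9, which encodes a tetraspanin that associates with the HB-EGF precursor, rose by 0.44 (adjusted p = 0.019). Over the mean of their 2 probe sets each, the rises of Gpc1 and Cd9 were smaller, 0.51 and 0.29. Nrp1, a co-receptor gene of semaphorins and VEGF, fell by 1.22 (SE 0.15, adjusted p = 0.0043). When Mock 2, Mock 3 or Ad-Epas1 2 was left out, Cd9 was not called and the list had 3 calls.

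The next list holds genes that restrain ErbB receptors, genes that act in receptor turnover and genes that restrain the Ras-MAP kinase route below them. Of 26 measured genes of receptor feedback and turnover, 11 rose, 1 fell and 14 did not pass (46.2% called, beside 16.3% of all genes, of which 6.57% rose and 9.75% fell), with a median of 0.31. Errfi1, whose product MIG6 binds and inhibits the EGFR kinase, stood at 11.34, 11.27 and 11.29 in Mock and at 12.40, 12.39 and 11.92 in Ad-Epas1. It rose by 0.94 (SE 0.14, limma, adjusted p = 0.0074). Lrig1, a membrane protein gene that promotes the breakdown of ErbB receptors, stood at 8.20, 7.87 and 7.95 in Mock and at 8.97, 9.16 and 8.85 in Ad-Epas1. It rose by 0.99 (SE 0.12, adjusted p = 0.0041).

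Spred3, an inhibitor gene of the Ras-MAP kinase route, rose by 1.35 (SE 0.19, adjusted p = 0.0068), and Stam, an endosomal sorting gene, by 0.72 (SE 0.08, adjusted p = 0.0034). The fallen member was Lrig3, a relative of Lrig1, at 11.06 ± 0.29 in Mock and 9.10 ± 0.72 in Ad-Epas1 (-1.96, SE 0.35, adjusted p = 0.014). Dusp6, a phosphatase gene of ERK named after its values were seen, stood at 11.88 and 11.83 on Ad-Epas1 replicates 1 and 2 and at 10.52 on replicate 3, beside 10.31 to 10.42 in Mock. It did not pass (1.04, adjusted p = 0.092), but passed at 1.48 when Ad-Epas1 3 was left out. When Mock 2, Mock 3 or Ad-Epas1 2 was left out, Lrig3 was not called and the list had 4, 4 and 5 calls. Errfi1, Lrig1, Spred3 and Stam kept theirs with each array left out (adjusted p up to 0.043). Relative to each gene's Mock mean, the list's median was 0.28, 0.38 and 0.21 on Ad-Epas1 replicates 1 to 3 and between -0.02 and 0.03 on the Mock arrays.

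Adaptors and kinases that carry the signal inside the cell moved in both directions. Of 27 measured, 5 rose, 5 fell and 17 did not pass, with a median of 0.04. The called share was 37%, beside 16.3% of all genes (6.57% higher and 9.75% lower). Braf, a kinase gene of the Ras route, fell by 0.65 (SE 0.09, limma, adjusted p = 0.0056), Nck2, an adaptor gene, by 0.58 (SE 0.09, adjusted p = 0.0077) and Akt2, a PI3 kinase effector gene, by 0.49 (SE 0.10, adjusted p = 0.020). Map2k1, which encodes MEK1, rose by 0.52 (SE 0.09, adjusted p = 0.013). When Mock 2, Mock 3 or Ad-Epas1 2 was left out, Map2k1 and Akt2 were not called and the list had 2 calls in place of 10. It had 4 when Mock 1 or Ad-Epas1 1 was left out, the latter also ending the call of Akt2, and 16 when Ad-Epas1 3 was.

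Genes that respond early to growth factors rose in part. Of 20 measured, 8 rose, 1 fell and 11 did not pass (45% called), with a median of 0.49. Of all genes 16.3% were called, 6.57% higher and 9.75% lower. Srf, the serum response factor gene, stood between 9.46 and 9.59 in Mock and between 10.05 and 10.16 in Ad-Epas1, and rose by 0.61 (SE 0.07, limma, adjusted p = 0.0038). Ier3 rose by 1.47, Junb by 0.77 and Plaur, the urokinase receptor gene, by 1.17 (adjusted p = 0.0028, 0.0040 and 0.021), and Myc fell by 0.47 (adjusted p = 0.034). Egr1, a textbook early target of EGF named after its values were seen, stood at 7.57, 8.99 and 9.21 in Mock and at 7.43, 7.75 and 7.60 in Ad-Epas1. Its Mock replicate 1 lay within the Ad-Epas1 range, and the difference of -0.995 did not pass (adjusted p = 0.14), but passed at -1.50 when Mock 1 was left out. When Mock 2, Mock 3 or Ad-Epas1 2 was left out, Plaur and Myc were not called and the list had 3 calls in place of 9. It had 5 when Mock 1 was left out, which ended the call of Myc too, as did leaving out Ad-Epas1 1. Relative to each gene's Mock mean, the list's median was 0.49 and 0.53 on Ad-Epas1 replicates 1 and 2 and 0.15 on replicate 3. The macrophage markers were low on that array, and their part in this was not tested.

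**Figure D4:**
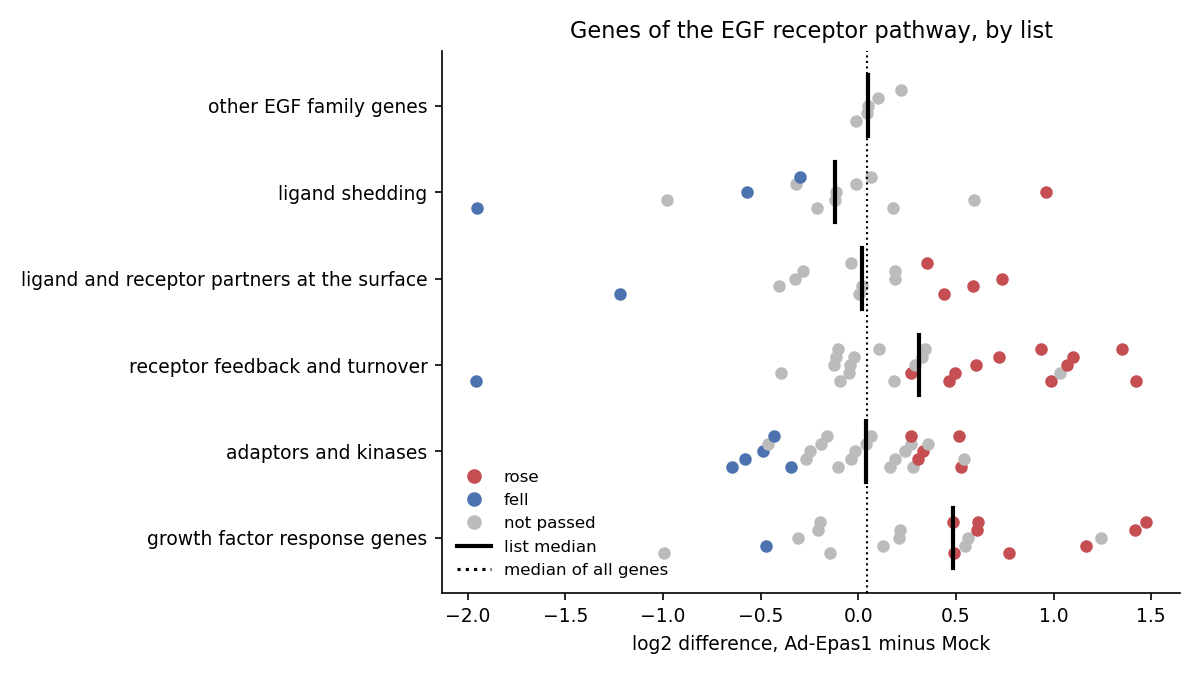
Log2 difference of Ad-Epas1 minus Mock (horizontal axis) of each measured gene in 6 lists of the EGF receptor pathway, with genes that rose in red, genes that fell in blue and genes that did not pass in grey. Black bars are list medians and the dotted line is the median of all genes (0.05); the medians of the feedback (0.31) and response (0.49) lists lie to its right and those of the other lists within 0.17 of it.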

How the data were processed

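Total RNA from 6 mouse synoviocyte samples, 300 ng each, was labelled and hybridised to Affymetrix whole-transcript arrays, per the labels' protocols. The deposited values are log2 levels per probe set, made by the authors with RMA (Affymetrix Expression Console, version 1.3.1, according to the submitters' processing notes). RMA includes quantile normalization, which hides a change common to most genes, and probe summaries compress large changes. The sources used here name no genome build. No column belonged to another sample (0 columns).

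Of 41345 probe sets, 23521 had 1 gene symbol, 1814 had several and 16010 none in the platform annotation, and 23328 of the first were matched to RefSeq by Entrez identifier, with 0 symbols changed. The brightest probe set per gene left 22180 genes, unfiltered. Groups and replicate numbers come from the titles. The groups were compared with limma 3.58.1 (lmFit, eBayes, R 4.3.3), two-sided, and p-values were adjusted over all genes by Benjamini-Hochberg. The script was tested on simulated data. The number of arrays limits the precision, and with 3 per group an exact permutation test cannot go below p = 0.1.

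The members and the 6 pathway lists (112 symbols, 104 measured) were chosen with earlier results of these data known, and so were the 6 marker lists. Named with values were all members and other family genes, Epas1, the 4 genes with the smallest p of each other list, any member called against its list's majority and the 5 genes most like the member with the largest difference. Genes with no settled name were left out before those 5 were picked. Alternatives were a replicate block, each array left out, another quantile step, median centring, a filter on genes below the median level, array weights, a trended robust variance prior, every probe set separately and the mean over probe sets. Leaving out Mock replicate 1 together with Ad-Epas1 replicate 3 was added after seeing the data.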

Additional observations from a re-analysis of the deposited data

How the results depend on the processing

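The 4 called members (Ereg, Hbegf, Epgn and Nrg1) kept their direction and call under all 15 alternatives that tested them. The member count was 4 in each except with array weights (5, with Tgfa) and with only genes above the median level, where 5 members were tested and 3 were called, Epgn being too dim to enter. That filter gave no value for the other family genes. Epas1 stayed between 4.44 and 4.54 with each array left out. With 1 array left out, the calls over all genes ranged from 1181 to 5390, those of shedding from 2 to 7, of surface partners from 3 to 6, of feedback and turnover from 4 to 17, of adaptors and kinases from 2 to 16 and of response genes from 3 to 13. With Mock replicate 1 and Ad-Epas1 replicate 3 left out together they were 6000 over all genes, 8 for shedding, 9 for surface partners, 16 for adaptors and 14 for response genes. With array weights they were 7791 over all genes, 1 for the other family genes, 8 for shedding, 10 for surface partners, 21 for adaptors and 17 for response genes, and the cause was not tested. With the mean over probe sets, shedding had 2 calls. Same-numbered arrays deviated together in pairs 1 and 3 but not in pair 2 (correlations 0.34, -0.19 and 0.21), and not every array correlated best with its own number, so the numbers were not taken as pairs. With the replicate block the calls of adaptors and kinases were 6 (10 without it), and 3108 genes were called in all. Among the named genes the block ended the calls of Adam15 (adjusted p = 0.059) and Myc (0.059) and brought Rhbdf2 past the threshold (0.030). Levels near those of the olfactory receptor genes limit what can be seen of Epgn, Tgfa, Btc, Erbb3 and the other family genes.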
